A study of Mus musculus with 10 samples.

Results

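Expression of the guanylin, uroguanylin and guanylate cyclase C axis was examined in mouse colonic organoids, epithelial cultures grown from colonic crypts. The axis was taken as 5 genes, chosen by name: the hormone genes Guca2a and Guca2b, the receptor gene Gucy2c, the kinase gene Prkg2 and the phosphodiesterase gene Pde5a. Each was mapped to the probe sets that carry its symbol alone, and all 5 were found among the 18820 distinct genes of the platform annotation. The choice was made with earlier results of these data known, so the genes' ranks and percentages among all probe sets are descriptions. The organoids came from male mice with a C57BL/6J background. Each genotype had 3 mice. Knockout (KO) mice were homozygous for a Pparg allele with exons 1 and 2 floxed and carried Cre under the villin promoter, which is active in intestinal epithelium. Their wild-type (WT) littermates were the controls. Pparg encodes PPARγ, a nuclear receptor whose ligands include fatty acids, and rosiglitazone is its synthetic agonist. All cultures grew in Matrigel with Wnt, R-spondin, Noggin and EGF, and received either 1 µM rosiglitazone or the vehicle, 0.1% DMSO, over 24 h. The 4 groups were KO rosiglitazone (3 arrays, with replicates 1, 2 and 3 grown from mice 46, 45 and 44), KO vehicle (2 arrays, mice 46 and 44), WT rosiglitazone (3 arrays, with replicates 1, 2 and 3 grown from mice 48, 42 and 47) and WT vehicle (2 arrays, mice 42 and 47). Mice 46, 44, 42 and 47 thus had both a rosiglitazone and a vehicle array, and mice 45 and 48 had rosiglitazone arrays alone.

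Guanylin and uroguanylin are small peptide hormones that epithelial cells secrete into the gut lumen. They bind guanylate cyclase C, a receptor in the apical membrane that makes cyclic GMP when occupied and that is also the receptor of the heat-stable enterotoxin of Escherichia coli. Cyclic GMP activates the membrane-bound kinase encoded by Prkg2, which opens the chloride channel CFTR and restrains sodium uptake by the exchanger NHE3, so that salt and water stay in the lumen, while phosphodiesterases such as that of Pde5a break cyclic GMP down. In human colorectal tumours guanylin is among the transcripts most often lost.

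The 2 hormone genes lie close together on mouse chromosome 4, with start sites 21.2 kb apart and on opposite strands. Their promoters are shown because Guca2a varied most among the members and Guca2b correlated with it over the arrays. Prkg2 correlated with Guca2a about as closely, with the opposite sign. RefSeq windows of GRCm38.p6, from 250 bases before to 50 bases after the annotated start, were given for 3 of the 5 members, Guca2a, Guca2b and Pde5a. The Guca2a window is chr4:119637482-119637781 on the plus strand, with 56.3% G and C, and the Guca2b window is chr4:119658896-119659195 on the minus strand, with 56% G and C. Both are written 5′ to 3′ in the direction of transcription. Capitals mark the matches to the motifs described here, which in Guca2a are CTTATC, the reverse complement of the GATA site GATAAG. The Guca2b window has none.
Guca2a promoter: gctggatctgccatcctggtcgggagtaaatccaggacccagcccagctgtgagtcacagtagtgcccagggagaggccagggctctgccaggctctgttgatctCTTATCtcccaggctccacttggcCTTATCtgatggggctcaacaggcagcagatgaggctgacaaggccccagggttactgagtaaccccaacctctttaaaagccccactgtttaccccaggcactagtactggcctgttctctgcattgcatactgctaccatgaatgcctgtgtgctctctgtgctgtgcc
Guca2b promoter: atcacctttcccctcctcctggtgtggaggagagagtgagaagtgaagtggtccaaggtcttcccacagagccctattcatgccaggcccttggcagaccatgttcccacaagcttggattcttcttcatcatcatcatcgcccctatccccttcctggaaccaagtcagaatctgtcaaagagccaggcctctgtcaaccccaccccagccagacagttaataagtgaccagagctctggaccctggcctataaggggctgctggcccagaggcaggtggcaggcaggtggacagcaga
In Guca2a the GATA matches begin at positions -145 and -121, counting the base before the start as -1, and do not overlap. On both strands, GATAAG was present in 7.45% of 32817 promoter windows of the same length. The TATA box TATAAA (13.6% of windows), the CDX site TTTATG (11.9%), the nuclear receptor half-site AGGTCA (16.3%) and its direct repeat AGGTCANAGGTCA, the element to which PPARγ binds with RXR (0.0396%), had no match in either window. The Pde5a window had no match to any of the 5 motifs. Only the exact letters of each motif were searched, so variants such as other TATA-like sequences would be missed. Sites of other factors were not searched. These matches describe letters and are not evidence of binding.

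Values are the log2 expression that the authors deposited after RMA, a method that corrects background, normalizes arrays and sums the probes of each probe set. Probe sets differ in brightness, so levels are compared between arrays and not between genes. Array medians lay between 3.54 and 3.72. All 8 epithelial markers had means above 4.51, the median of the tested probe sets, and their joint mean was 9.85 to 10.17 in every array. The 22 measured markers of fibroblasts, smooth muscle, endothelium and immune cells all had means below that median. Of 3 measured colon markers Car1 lay above the median, and Hoxb13 and Hoxd10 below it. Car1 read 10.77 to 11.42 in KO arrays and 11.47 to 11.92 in WT arrays. Of 6 small intestine markers, only Apob lay above the median, at 4.54 to 6.72 in KO arrays and 3.22 to 3.67 in WT arrays. The part of regional identity in the genotype differences was not tested. The arrays of mouse 46, labelled KO, stood apart on the principal component that held 27.4% of the variance, at -31.75 in rosiglitazone and -39.3 in vehicle, with the other arrays from -4.10 to 19.6. Pparg itself read 7.37 to 8.78 in KO arrays and 7.59 to 8.41 in WT arrays, and because the place of its probes relative to the floxed exons is not given in the sources used here, it is no check of the deletion or of the labels. Each genotype direction given here therefore rests on the labels, and the arrays of a mouse are separate cultures of 1 donor. The p-values rest on the spread between these arrays, which joins differences between mice and between cultures. That spread was moderated with the spread of all probe sets, and the main fit did not pair arrays by mouse. An exact two-sided permutation test of a single gene cannot go below p = 0.2 with 3 arrays against 2, 0.1 with 3 against 3 and 0.333 with 2 against 2, so single genes were tested only in the limma fit across all 23099 annotated probe sets.

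Guca2a, which encodes guanylin, varied more over the arrays than any other member, and was low in KO vehicle organoids and high in WT vehicle organoids. It read 5.77, 7.45 and 6.41 in KO rosiglitazone replicates 1, 2 and 3 and 4.58 and 5.50 in KO vehicle replicates 1 and 2. It read 5.67, 6.07 and 6.91 in WT rosiglitazone replicates 1, 2 and 3 and 7.25 and 7.22 in the WT vehicle arrays. The group means were thus ordered as WT vehicle (7.23), KO rosiglitazone (6.54), WT rosiglitazone (6.22) and KO vehicle (5.04). KO rosiglitazone overlapped with WT vehicle on one side and with WT rosiglitazone on the other, while each KO vehicle array lay below each array of the other groups. The share of all probe sets with that separation of KO vehicle was not counted. The standard deviation over the 10 arrays was 0.93, larger than that of 99.5% of the tested probe sets. In bulk RNA such as this, fewer cells expressing a gene and less RNA per cell cannot be told apart.

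**Figure D1:**
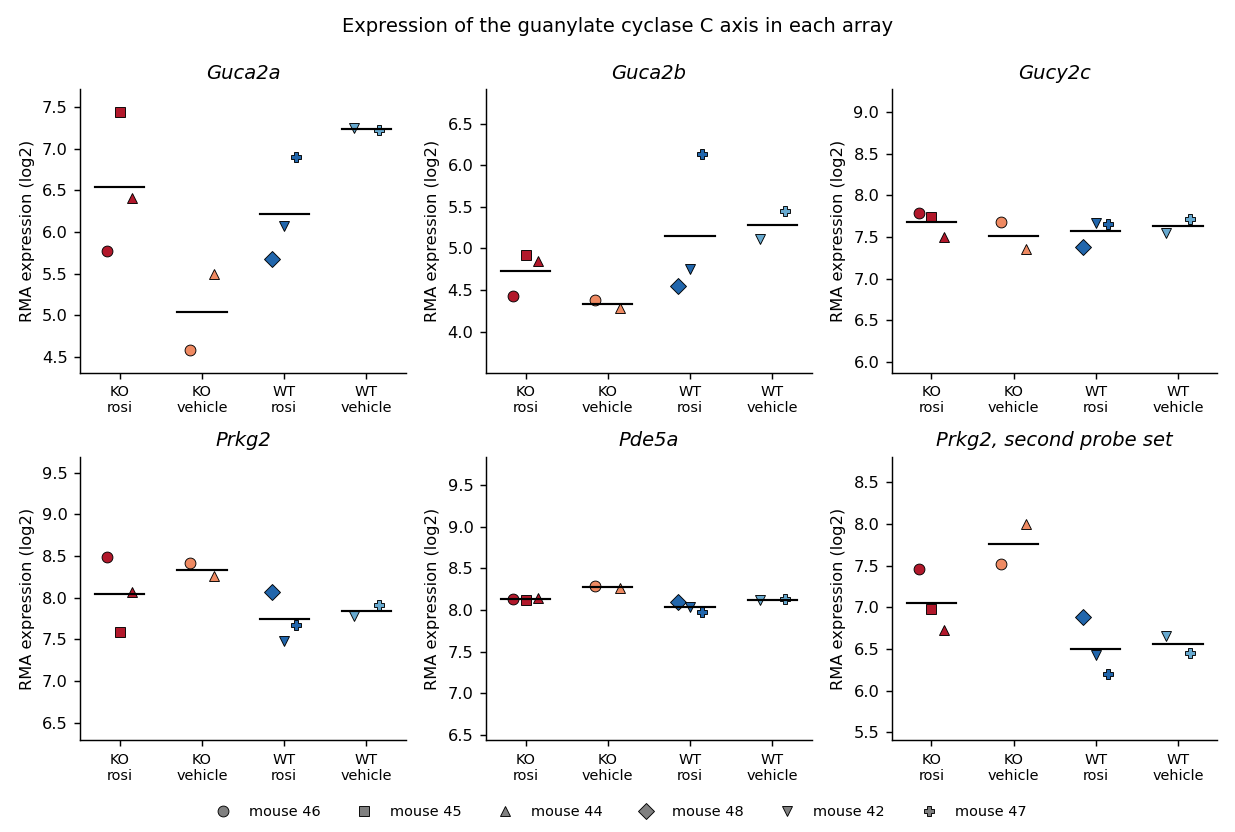
RMA expression (log2) of each member in each of the 10 arrays, by group, with 1 symbol shape per mouse, group means as horizontal lines, and y axes of equal span. Guca2a spans 4.58 to 7.45 and its KO vehicle arrays lie below all others, whereas Gucy2c and Pde5a span 0.43 and 0.32 log2 units.

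Under vehicle, Guca2a was lower in KO than in WT organoids, with means of 5.04 ± 0.65 and 7.23 ± 0.02 (SD, n = 2 each). The difference of -2.19 (SE 0.52, 95% confidence interval -3.34 to -1.04) did not pass the threshold after adjustment over all probe sets (adjusted p = 0.787). It ranked at 41 of 23099 by p, and 0.0823% of probe sets had a larger difference in size. Without both arrays of mouse 46 it was -1.74 (adjusted p = 0.772). Under rosiglitazone the genotypes overlapped, at 6.54 ± 0.85 in KO and 6.22 ± 0.63 in WT organoids (SD, n = 3 each), a difference of 0.32 (SE 0.42, adjusted p = 0.999). That sign rested on KO rosiglitazone replicate 2 from mouse 45, since without this array the difference was -0.13.

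Rosiglitazone went with higher Guca2a in KO organoids and lower Guca2a in WT organoids, by values that missed the threshold in each case. In KO organoids the rosiglitazone arrays all lay above the vehicle arrays, and the difference was 1.50 (SE 0.47, interval 0.45 to 2.55, adjusted p = 1). In WT organoids they all lay below the vehicle arrays, and the difference was -1.02 (SE 0.47, interval -2.06 to 0.03, adjusted p = 1). Within the mice that gave both arrays, rosiglitazone minus vehicle was 1.19 in KO mouse 46 and 0.91 in KO mouse 44, against -1.17 in WT mouse 42 and -0.31 in WT mouse 47. Both KO mice thus went one way and both WT mice the other. The difference between the responses was 2.52 (SE 0.67, interval 1.03 to 4.0), at rank 15 by p, and it did not pass (adjusted p = 1). Among all probe sets, 5.81% had both KO mice up and both WT mice down, and 6.01% the reverse. Without mouse 46 the difference between the responses was 2.44, and with the donor mouse as a fixed block, which leaves it to the 4 paired mice, it was 1.79 (adjusted p = 0.753). The response in KO organoids was 1.05 on the paired mice, and leaving out KO rosiglitazone replicate 2 leaves those same KO arrays.

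**Figure D2:**
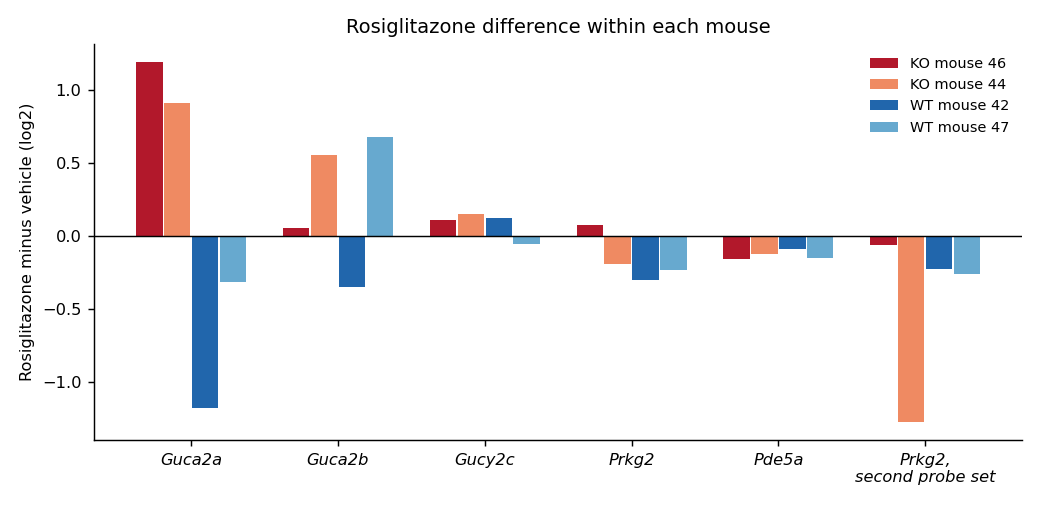
Rosiglitazone minus vehicle (log2) within each of the 4 mice that gave both arrays, for each member, with 1 bar per mouse (KO mice 46 and 44, WT mice 42 and 47). Guca2a is above 0 in both KO mice and below 0 in both WT mice, and the Pde5a bars lie between -0.16 and -0.09.

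Other epithelial markers moved between the same arrays. The 7 measured genes of the goblet cell list (Muc2, Spink4, Tff3, Clca1, Zg16, Agr2 and Retnlb) averaged 3.79, 8.53 and 6.30 in KO rosiglitazone replicates 1, 2 and 3 and 3.85 and 5.63 in KO vehicle replicates 1 and 2. They averaged 4.15, 5.32 and 4.99 in WT rosiglitazone replicates 1, 2 and 3 and 5.75 and 5.21 in WT vehicle replicates 1 and 2. The array of mouse 45 was the highest for both Guca2a and goblet genes. The same array also had the highest means of the stem (6.88) and proliferation (9.16) marker lists. It was highest too for deep crypt secretory and Paneth (5.98), enteroendocrine (3.56) and tuft cell (3.25) markers, but not for epithelial markers (10.12). Its high rank was thus not particular to goblet genes. Of the 7 goblet genes, 6 had a mean above the median of the tested probe sets. The 12 genes of the differentiated colonocyte list, which does not hold Guca2a, averaged 7.19 to 7.44 in KO rosiglitazone, 7.08 to 7.32 in KO vehicle, 7.06 to 7.60 in WT rosiglitazone and 7.24 to 7.63 in WT vehicle arrays. No gene reads 0 on this scale, and 10 of the 12 colonocyte genes had a mean above the median of the tested probe sets. The part of goblet or colonocyte content in the Guca2a values was not tested.

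Guca2b, the uroguanylin gene, which in mice is expressed most strongly in the proximal small intestine, was likewise lower in both KO vehicle arrays than in both WT vehicle arrays. It read 4.43, 4.92 and 4.84 in KO rosiglitazone replicates 1, 2 and 3 and 4.38 and 4.29 in KO vehicle arrays. It read 4.55, 4.76 and 6.13 in WT rosiglitazone replicates 1, 2 and 3 and 5.11 and 5.45 in WT vehicle arrays. WT rosiglitazone replicate 3, from mouse 47, was the highest of all. Under vehicle the KO arrays lay below the WT arrays, by -0.95 (SE 0.42, interval -1.88 to -0.02, adjusted p = 0.855), and by -0.99 without mouse 46. Under rosiglitazone the genotypes overlapped, with a difference of -0.41 (SE 0.34, adjusted p = 0.999) that became 0.08 without WT rosiglitazone replicate 3. Rosiglitazone minus vehicle was 0.40 in KO organoids (SE 0.38, interval -0.45 to 1.25, adjusted p = 1), without overlap, and -0.14 in WT organoids (SE 0.38, interval -0.99 to 0.71, adjusted p = 1), with overlap. Within mice it was 0.05 and 0.55 in KO mice 46 and 44 and -0.35 and 0.68 in WT mice 42 and 47, so the WT mice differed in sign. The difference between the responses was 0.54 (SE 0.54, interval -0.67 to 1.74, adjusted p = 1), and it was 1.03 without WT rosiglitazone replicate 3 and 0.24 without WT rosiglitazone replicate 1.

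Over the 10 arrays Guca2a and Guca2b correlated at Pearson r = 0.712. Other pairs lay about as far from 0, with -0.711 for Guca2a and Prkg2, 0.708 for Prkg2 and Pde5a and -0.701 for Guca2b and Pde5a. Guca2b and Slc9a3, described below, correlated at 0.832. The pairs of Gucy2c with the other members lay between -0.222 and 0.286. The correlation of the 2 hormone genes was thus not particular to them. These arrays come from 6 mice and share donors and groups, so the values are descriptions. The mean level of Guca2b, 4.89, lay close to the median of the tested probe sets.

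Gucy2c, the receptor gene, was among the less variable members. It read 7.79, 7.74 and 7.51 in KO rosiglitazone replicates 1, 2 and 3 and 7.68 and 7.36 in KO vehicle arrays. It read 7.38, 7.67 and 7.66 in WT rosiglitazone replicates 1, 2 and 3 and 7.55 and 7.71 in WT vehicle arrays. The groups overlapped in all 4 pairwise comparisons. KO minus WT was -0.11 under vehicle (SE 0.17, interval -0.50 to 0.27, adjusted p = 0.925) and 0.11 under rosiglitazone (SE 0.14, interval -0.21 to 0.42, adjusted p = 0.999). Rosiglitazone minus vehicle was 0.16 in KO organoids (SE 0.16, interval -0.19 to 0.51, adjusted p = 1) and -0.06 in WT organoids (SE 0.16, interval -0.41 to 0.29, adjusted p = 1). No difference was detectable with these arrays, and the intervals of the pairwise comparisons leave room for differences of up to 0.51 in size. The standard deviation over the arrays, 0.15, was larger than that of 27.1% of probe sets, against 99.5% for Guca2a, and the 2 genes correlated at r = 0.259.

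Prkg2, which encodes the type of cyclic GMP-dependent kinase that sits in the apical membrane of enterocytes, was measured by 2 probe sets. Probe set 10531588, the brighter one, read 8.49, 7.59 and 8.06 in KO rosiglitazone replicates 1, 2 and 3 and 8.42 and 8.26 in KO vehicle arrays. It read 8.07, 7.48 and 7.67 in WT rosiglitazone replicates 1, 2 and 3 and 7.78 and 7.91 in WT vehicle arrays. Under vehicle both KO arrays lay above both WT arrays, by 0.49 (SE 0.27, interval -0.11 to 1.09, adjusted p = 0.855). Under rosiglitazone the genotypes overlapped, with a difference of 0.31 (SE 0.22, adjusted p = 0.999) that was 0.09 without mouse 46.

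Probe set 10523511 of the same gene read 7.46, 6.98 and 6.73 in KO rosiglitazone replicates 1, 2 and 3 and 7.52 and 8.01 in KO vehicle arrays. It read 6.88, 6.43 and 6.20 in WT rosiglitazone replicates 1, 2 and 3 and 6.65 and 6.46 in WT vehicle arrays. Its KO minus WT difference under vehicle, 1.21 (SE 0.28, interval 0.59 to 1.82, adjusted p = 0.787), had the sign of the other probe set and was more than 1.5 times as large. Under rosiglitazone it was 0.55 (SE 0.23, interval 0.05 to 1.06, adjusted p = 0.999), with overlap. For rosiglitazone against vehicle in KO organoids it gave -0.70 (SE 0.25, interval -1.27 to -0.14, adjusted p = 1) without overlap, where probe set 10531588 gave -0.29 (SE 0.25, interval -0.84 to 0.26, adjusted p = 1) with overlap. The value of -0.29 became -0.51 without KO rosiglitazone replicate 1 and -0.06 without replicate 2. In KO mice 46 and 44 the change was 0.08 and -0.19 with probe set 10531588 and -0.06 and -1.28 with probe set 10523511, so the probe sets differed most in mouse 44. In WT organoids the probe sets gave -0.10 and -0.05 (SE 0.25 each, adjusted p = 1 for both). The place of either probe set in the gene is not given in the sources used here.

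Pde5a, the gene of a cyclic GMP phosphodiesterase, read within a narrow range of 7.98 to 8.29 over the 10 arrays. It read 8.14, 8.13 and 8.14 in KO rosiglitazone replicates 1, 2 and 3 and 8.29 and 8.27 in KO vehicle arrays. It read 8.09, 8.03 and 7.98 in WT rosiglitazone replicates 1, 2 and 3 and 8.12 and 8.13 in WT vehicle arrays. The groups did not overlap in any of the 4 pairwise comparisons, although the steps were small. Rosiglitazone minus vehicle was -0.15 in KO organoids (SE 0.11, interval -0.40 to 0.10) and -0.09 in WT organoids (SE 0.11, interval -0.34 to 0.16), with adjusted p = 1 for both. Within mice it was -0.16 and -0.13 in KO mice 46 and 44 and -0.09 and -0.15 in WT mice 42 and 47. How often all paired mice share a sign among all probe sets was not counted. KO minus WT was 0.16 under vehicle (SE 0.12, interval -0.12 to 0.43, adjusted p = 0.869) and 0.10 under rosiglitazone (SE 0.10, interval -0.12 to 0.32, adjusted p = 0.999). The SE of the fit draws on the spread of all probe sets and so exceeds the spread of Pde5a within its groups, where the residual standard deviation was 0.03. Of all probe sets, 48.1% had a larger difference in size for KO against WT under vehicle.

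**Figure D3:**
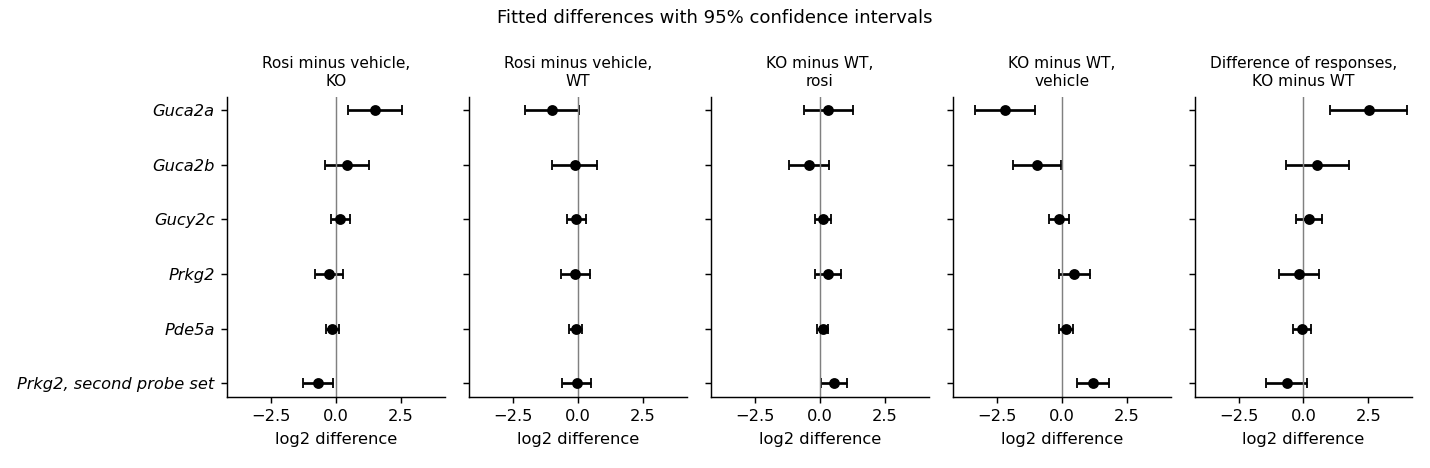
Fitted log2 differences (points) with 95% confidence intervals (bars) for each member in the 5 comparisons, the last being the difference between the rosiglitazone responses of KO and WT organoids. The Guca2a intervals exclude 0 for rosiglitazone in KO, KO minus WT under vehicle and the difference of responses before adjustment over all probe sets.

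Across the members, 0 of 5 passed the limma threshold in any comparison. Of all 23099 probe sets, 0% passed for rosiglitazone in KO, for rosiglitazone in WT, for KO against WT under vehicle and for the difference of responses, and 0.0216% passed for KO against WT under rosiglitazone. At an unadjusted p under 0.05, Guca2a stood in 3 comparisons (rosiglitazone in KO, KO against WT under vehicle and the difference of responses) and Guca2b in 1 (KO against WT under vehicle). The dimmer Prkg2 probe set, 10523511, also stood in 3 (rosiglitazone in KO and KO against WT under either treatment), at rank 36 by p under vehicle, while the brighter one stood in none. The share of all probe sets at that p was 3.06% for rosiglitazone in KO, 4.81% for KO against WT under rosiglitazone, 5.69% for KO against WT under vehicle and 2.32% for the difference of responses. For KO against WT under vehicle the groups did not overlap for 4 of 5 members, Guca2a and Guca2b being lower and Prkg2 and Pde5a higher, while 39.1% of all probe sets did not overlap (23.0% higher and 16.1% lower). For rosiglitazone in KO this held for 3 of 5 members, Guca2a and Guca2b being higher and Pde5a lower, against 13.7% of all probe sets (5.81% higher and 7.93% lower). For rosiglitazone in WT it held for 2 of 5, Guca2a and Pde5a, both lower, against 15.4% of all (6.78% lower). For KO against WT under rosiglitazone it held for Pde5a, 1 of 5, which was higher, against 8.69% of all (4.22% higher). These comparisons share arrays with each other, so their values for a gene are not separate evidence.

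Genes that act with the axis were described from 5 lists, of which 62 of 65 genes had values here. None of the 62 passed the threshold in any of the 5 comparisons. At an unadjusted p under 0.05 stood 3 of 62 for rosiglitazone in KO (3.06% of all probe sets) and 3 for rosiglitazone in WT (0.991%). For KO against WT there were 9 under rosiglitazone (4.81% of all probe sets) and 8 under vehicle (5.69%). For the difference of responses there were 2 (2.32%). The list of apical ion transport and scaffolds held 5 of those 9 and 5 of those 8.

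Among the 17 apical ion transport genes and scaffolds, 11 were below 0 and 6 above 0 for KO against WT under vehicle, with a median difference of -0.11. Over all probe sets 44.4% were below 0 and the median was 0.03. Slc9a3, the gene of the apical sodium-proton exchanger NHE3, read 5.10, 5.12 and 4.74 in KO rosiglitazone replicates 1, 2 and 3 and 3.66 and 3.59 in KO vehicle arrays. It read 4.39, 5.70 and 6.58 in WT rosiglitazone replicates 1, 2 and 3 and 6.31 and 7.10 in WT vehicle arrays. As for Guca2a, both KO vehicle arrays lay below the arrays of every other group. Of all probe sets, 16.1% had both KO vehicle arrays below both WT vehicle arrays. The share with KO vehicle below every other group was not counted. KO minus WT under vehicle was -3.08 (SE 0.53, adjusted p = 0.363), and -3.12 without mouse 46. This passed in 1 of 20 alternatives, without WT rosiglitazone replicate 1, an array outside that comparison, so that the difference itself is the same (adjusted p = 0.0201, with a range of 0.0201 to 1 over the alternatives). Rosiglitazone minus vehicle was 1.36 in KO organoids (SE 0.49, adjusted p = 1) and -1.15 in WT organoids (SE 0.49, adjusted p = 1). Within mice it was 1.44 and 1.15 in KO mice 46 and 44 and -0.62 and -0.52 in WT mice 42 and 47. Slc9a3 and Guca2a correlated at r = 0.791 over the 10 arrays, again as a description.

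**Figure D4:**
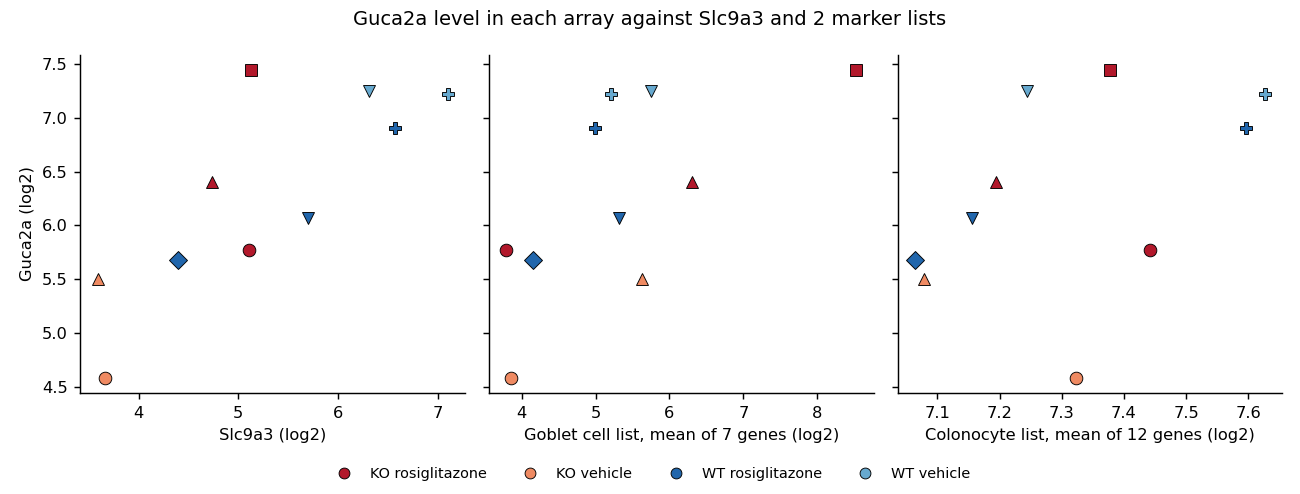
Guca2a level (log2) in each of the 10 arrays against Slc9a3, the mean of 7 goblet cell genes and the mean of 12 colonocyte genes (all log2), coloured by group, with 1 symbol shape per mouse. KO rosiglitazone replicate 2 (mouse 45) has the highest Guca2a, 7.45, and the highest goblet mean, 8.53, and the KO vehicle arrays have the lowest Slc9a3 and Guca2a.

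Slc9a2, the gene of the related exchanger NHE2, read 4.36, 5.27 and 5.73 in KO rosiglitazone and 4.47 and 5.09 in KO vehicle arrays. It read 5.57, 6.62 and 7.13 in WT rosiglitazone and 6.60 and 6.87 in WT vehicle arrays. The KO vehicle arrays lay below the WT vehicle arrays by -1.96 (SE 0.50, adjusted p = 0.846), and under rosiglitazone, where 1 pair of arrays overlapped, the difference was -1.32 (SE 0.41, adjusted p = 0.905). Without mouse 46 these values were -1.65 and -0.94. Kcnn4, a basolateral potassium channel gene, was -1.13 under vehicle (SE 0.45, adjusted p = 0.855) and -0.86 under rosiglitazone (SE 0.37, adjusted p = 0.999), and these came to -0.68 and -0.40 without mouse 46, a change of more than 1.5 times. Slc9a3r2, a scaffold that holds NHE3 near its kinase, was -0.67 under vehicle (SE 0.28, adjusted p = 0.855). Cftr, the chloride channel gene, went the other way and read 8.60, 8.93 and 8.57 in KO rosiglitazone arrays, against 8.34, 7.95 and 8.08 in WT rosiglitazone arrays. Its groups did not overlap, and the difference was 0.58 (SE 0.15, adjusted p = 0.655). Slc26a3, the apical chloride-bicarbonate exchanger of colonocytes, was dim (2.15 to 2.83) except in KO rosiglitazone replicate 2, where it read 4.57.

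The 17 genes of other cyclic GMP makers and their ligands all had means below the median of the tested probe sets. They include the soluble guanylate cyclase subunits Gucy1a1, Gucy1a2, Gucy1b1 and Gucy1b2, the natriuretic peptide receptors Npr1 and Npr2 and the nitric oxide synthases. Of the guanylate cyclase genes measured, Gucy2c was thus the one above that median. In the KO rosiglitazone comparison with vehicle, 12 of the 17 were below 0 (median -0.15), against 53.6% of all probe sets (median -0.01). The largest difference was that of Gucy2e, a guanylate cyclase of the retina, at -0.62 (SE 0.16, adjusted p = 1). Its arrays read 2.23, 2.21 and 2.38 in KO rosiglitazone and 3.16 and 2.62 in KO vehicle, in the dim part of the range. Gucy1a2 was -0.76 in KO against WT under rosiglitazone (SE 0.40, adjusted p = 0.999), with overlap. Npr1 was -0.39 in KO against WT under rosiglitazone (SE 0.12, adjusted p = 0.924).

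**Figure D5:**
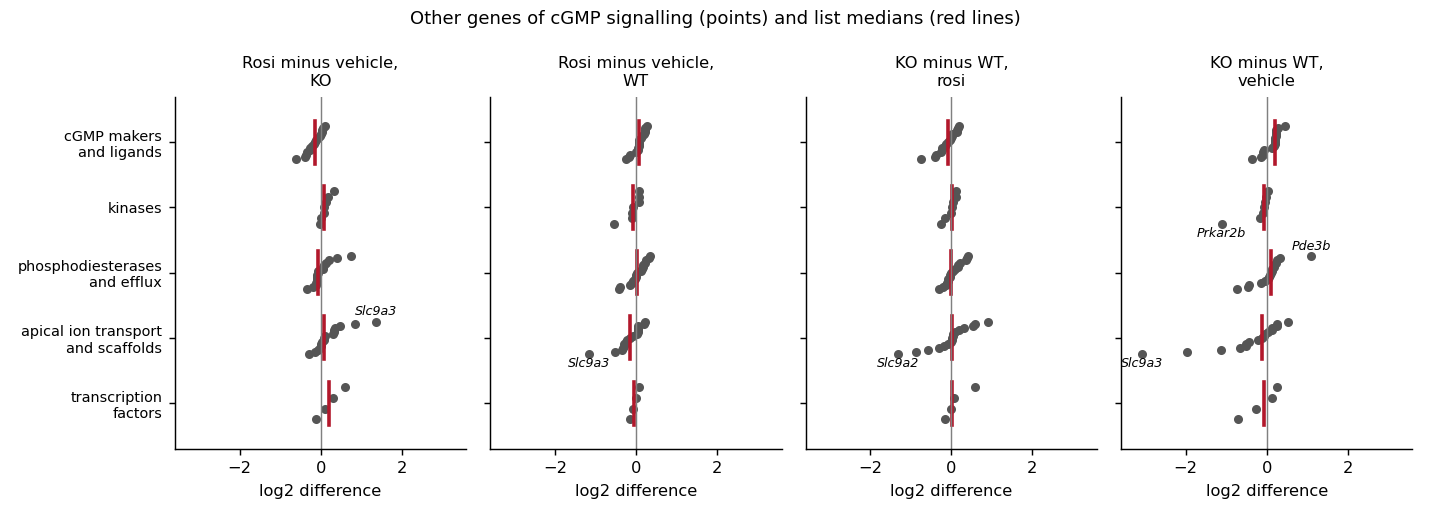
Log2 differences of the measured genes of the 5 pathway lists (points) in the 4 pairwise comparisons, with each list's median as a red line. Medians lie between -0.15 and 0.20, and Slc9a3 is the farthest gene from 0 under vehicle, at -3.08.

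Of the 8 genes on the kinase list, which also holds regulatory subunits and Vasp, 7 were measured. Prkg1, the gene of the soluble cyclic GMP-dependent kinase, was dim in all arrays (2.07 to 2.41). Prkar2b, a regulatory subunit of protein kinase A, read 3.04 and 3.45 in KO vehicle arrays, against 4.66 and 4.06 in WT vehicle arrays, a difference of -1.11 (SE 0.45, adjusted p = 0.855). For rosiglitazone in KO organoids Prkar2b was 0.32 (SE 0.41, adjusted p = 1) and Prkar1b, another regulatory subunit, 0.19 (SE 0.15, adjusted p = 1). Within KO mice 46 and 44 Prkar2b changed by 0.50 and -0.58, in opposite directions, and Prkar1b by 0.34 and 0.05. Among 17 phosphodiesterase and efflux genes the median differences lay between -0.06 and 0.10. Pde3a, of a phosphodiesterase inhibited by cyclic GMP, read 2.77, 5.38 and 3.21 in KO rosiglitazone arrays, against 2.52 and 3.55 in KO vehicle arrays. Its difference of 0.75 (SE 0.70, adjusted p = 1) was the largest of that list for rosiglitazone in KO, with overlap. Pde3b, whose enzyme is inhibited by cyclic GMP, read 5.23 and 6.62 in KO vehicle arrays, against 5.17 and 4.49 in WT vehicle arrays, a difference of 1.10 (SE 0.53, adjusted p = 0.855). Pde11a was -0.45 in that comparison (SE 0.14, adjusted p = 0.846) and -0.43 for rosiglitazone in WT organoids (SE 0.13, adjusted p = 1), at levels of 2.43 to 3.17. Abcc4, an exporter of cyclic nucleotides, was 0.33 for rosiglitazone in WT organoids (SE 0.15, adjusted p = 1).

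Of the transcription factors reported at the Gucy2c or guanylin promoters, 4 of 6 are described here. Cdx2, an intestinal homeobox factor, was -0.26 in KO against WT under vehicle (SE 0.15, adjusted p = 0.855) and -0.17 under rosiglitazone (SE 0.12, adjusted p = 0.999). Cdx1, its relative, read 4.14 and 3.95 in KO vehicle arrays, against 4.49 and 4.99 in WT vehicle arrays, and the difference was -0.70 (SE 0.32, adjusted p = 0.855). The nuclear receptor genes Hnf4a and Hnf4g differed by 0.24 (SE 0.16, adjusted p = 0.862) and 0.13 (SE 0.24, adjusted p = 0.938) in the same comparison. Hnf4g was 0.58 under rosiglitazone (SE 0.20, adjusted p = 0.957), without overlap.

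Genes with the most similar pattern were taken by Pearson correlation over the 10 arrays among 9263 genes with a mean above the median. For Guca2a they were Ssr2, of the translocon-associated complex (r = 0.931), the proteasome gene Psma7 (0.927), the complex I assembly gene Ndufaf4 (0.918), the polymeric immunoglobulin receptor gene Pigr (0.908) and the proteasome gene Psmb2 (0.906). Correlation ignores the size of change, and Ssr2 ranged only from 9.31 to 9.78. Pigr ranged from 6.03 to 9.82, and its mean was 8.22 in KO rosiglitazone, 6.82 in KO vehicle, 8.25 in WT rosiglitazone and 8.99 in WT vehicle arrays. For Guca2b they were Gramd3 (0.918), the carbonic anhydrase gene Car12 (0.914), the tRNA-modifying gene Trit1 (0.911), the complex I gene Ndufa5 (0.905) and the choline transporter gene Slc44a1 (0.903). Car12 averaged 7.08 in KO rosiglitazone, 6.82 in KO vehicle, 7.63 in WT rosiglitazone and 7.86 in WT vehicle arrays. For Gucy2c they were Vps52 (0.970), the ATP synthase gene Atp5a1 (0.956), Cyb561 (0.949), the proteasome gene Psmd2 (0.942) and the signal peptidase gene Sec11c (0.939). The lists of the 3 genes shared no gene. The 10 arrays come from 6 mice and the best of 9263 genes were taken each time, so these values are descriptions.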

How the data were processed

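Gene expression was measured on Affymetrix whole-transcript arrays, 1 per culture, 10 in all. The deposited table holds log2 expression for 35556 probe sets, made by the authors with RMA, per the submitters' processing notes. The version of RMA, the chip definition and the genome build are not given in the sources used here. Precision is set by the number of arrays, since they have no depth. RMA pulls dim probe sets together, which compresses their differences.

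The platform annotation listed 23099 probe sets, which were tested (21218 with 1 gene symbol, 1881 with several), and 12457 were left out. The probe set with the highest mean stood for a gene. limma 3.58.1 in R 4.3.3 fitted the 4 group means to all 10 arrays together (lmFit, eBayes, two-sided), with Benjamini-Hochberg adjustment over the 23099 probe sets and a threshold of 0.05. The fit was tested on simulated data without a donor effect, which cannot show how it behaves with arrays that share donors. Differences are log2, given with the standard error (SE) and 95% interval.

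Mouse pairs the arrays, since the labels give each array its donor. Over probe sets, the difference between WT mice 42 and 47 under one treatment correlated with that under the other at r = 0.44. For KO mice 44 and 46 this was 0.487, and 8 of 8 arrays correlated best with their own mouse. Alternatives were the donor as a random block (statmod 1.5.0, correlation 0.438) or fixed block, the 4 paired mice, centring, repeated quantile normalization, bright or all probe sets, only the groups compared, array weights, trend and robust eBayes, each array left out, and mouse 46 left out, which was added after the data were seen.

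The members and lists were chosen with earlier results of these data known. Named beside the members are, by rule, up to 4 genes per list and comparison with the largest difference, from which a selection is described, and the 5 genes most correlated with Guca2a, Guca2b and Gucy2c. Predicted gene models were left out of the correlated genes. Prkg1, Nos3, Pde6c, Kcnq1, Clca4a and Gsdmc2 are named outside the rule, after their values were seen.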

Additional observations from a re-analysis of the deposited data

Results flagged for a closer look

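For 13 of the 67 measured genes of the axis and its lists, both KO mice with paired arrays changed one way with rosiglitazone and both WT mice the other way. The difference between the responses (KO minus WT, limma) was 2.52 for Guca2a and 2.51 for Slc9a3, which were higher in KO mice and lower in WT mice. In the same directions it was 0.35 for the nitric oxide synthase gene Nos2, 0.28 for Prkar1b, a regulatory subunit of protein kinase A, 0.10 for Clca4a and 0.090 for Pde6h. The other 7 were lower in KO mice and higher in WT mice, at -0.68 for Gucy2e, -0.46 for the natriuretic peptide gene Nppc, -0.37 for Gucy2g, -0.32 for Nos3, -0.26 for Pde6c, -0.18 for Hnf4a and -0.039 for the potassium channel gene Kcnq1. The adjusted p was 1 for each of the 13. Of all probe sets, 5.81% had the KO mice up and the WT mice down, and 6.01% the reverse, so the pattern of signs alone is not rare. Guca2a and Slc9a3 stood apart by size: 0.00866% of probe sets had a larger difference between the responses than Guca2a. Gucy2e and Nppc read between 2.21 and 3.39 in all arrays, in the dim part of the range. Others were dim as well, with means below 4.51, the median of the tested probe sets. These were Nos2 (2.54), Prkar1b (2.95), Pde6h (2.45), Gucy2g (2.13), Nos3 (2.44) and Pde6c (2.50).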

How the results depend on the processing

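Over 515 alternatives to the 25 member values, 494 kept their direction and their side of the threshold, 0 passed it (lowest adjusted p 0.209, Guca2a for KO against WT under vehicle on the 4 paired mice) and 21 changed sign. Many alternatives cannot change a difference between group means. These are bright or all probe sets, only the groups compared, trend and robust eBayes, and leaving out an array outside the comparison. In those the direction was fixed in advance, so the count of kept directions is no measure of robustness. Guca2a kept its sign in every alternative for rosiglitazone in KO (1.04 to 1.96), rosiglitazone in WT (-1.36 to -0.74), KO against WT under vehicle (-2.65 to -1.74) and the difference of responses (1.79 to 2.97). The values below changed sign. With the donor mouse as a fixed replicate block, as on the 4 paired mice, rosiglitazone in WT was 0.16 for Guca2b and 0.033 for Gucy2c, and the Prkg2 difference of responses 0.21. On the paired mice KO against WT under rosiglitazone was -0.40 for Guca2a and -0.017 for Gucy2c. Array weights gave 0.076 for Guca2b in WT, and centring 0.013 for Gucy2c under vehicle. Leaving out 1 array gave ranges of -0.63 to 0.16 (Guca2b), -0.14 to 0.033 (Gucy2c) and -0.27 to 0.027 (Prkg2) for rosiglitazone in WT, -3.8e-04 to 0.32 for Gucy2c in KO, -0.13 to 0.71 (Guca2a) and -0.71 to 0.080 (Guca2b) for KO against WT under rosiglitazone, -0.27 to 0.046 for Gucy2c under vehicle and -0.41 to 0.046 for the Prkg2 difference of responses. With no change of sign, 1 array also moved 6 values by more than 1.5 times, giving 0.24 to 1.03 (Guca2b), 0.062 to 0.38 (Gucy2c) and -0.084 to -0.026 (Pde5a) for the difference of responses, 0.013 to 0.19 (Gucy2c) and 0.085 to 0.54 (Prkg2) for KO against WT under rosiglitazone, and -0.51 to -0.058 for Prkg2 in KO.

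The count of probe sets called for KO against WT under rosiglitazone was 5, against 16 on the paired mice, 12 with array weights, and 1 each with repeated quantile normalization, all probe sets, only the groups compared and mouse 46 left out. Leaving out 1 array gave 1 to 23, the highest without WT rosiglitazone replicate 1. For KO against WT under vehicle it was 0 (1314 at an unadjusted p under 0.05), against 6 on the paired mice, 4 with only the groups compared, 2 each with centring and with trend and robust eBayes, 1 each with the random replicate block, repeated quantile normalization and bright probe sets, and 0 to 6 leaving out 1 array. For rosiglitazone in KO it was 0, against 1 with the random replicate block. For KO against WT under rosiglitazone the random block called 6, the same 5 and Gsdmc2 (adjusted p = 0.0346). The block changed no other call. The cause of these changes was not tested. With 2 or 3 arrays a group, where leaving out 1 assumes that a lone array varies like the others, differences such as those of Gucy2c and Pde5a could not be resolved.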
